A study of Mus musculus with 12 samples.

Results

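The tumor necrosis factor (TNF) receptor cluster of Tnfrsf26, Tnfrsf22 and Tnfrsf23, the death receptors Tnfrsf1a, Fas and Tnfrsf10b, the second TNF receptor Tnfrsf1b and the ligands Tnfsf9 and Tnfsf14 were followed in neutrophils of tumor-bearing and healthy mice. These 9 genes, of 55335 counted per library, were taken by symbol, and their levels in the 3 groups of mice entered the choice. Their levels and fold changes are therefore given as a description, p-values are given for other genes only, and nothing is read from a count of the 9 past a threshold.

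TNF family ligands are trimers on the cell surface or in solution that gather their receptors into complexes at the membrane. Receptors with an intracellular death domain (Tnfrsf1a, Fas, and Tnfrsf10b, the mouse receptor for the ligand TRAIL) can recruit Fadd or Tradd and then Casp8, or activate NF-kB, while Tnfrsf1b has no death domain and signals through TRAF proteins. Tnfrsf22 and Tnfrsf23 bind TRAIL but lack a death domain and are known as decoy receptors, and Tnfrsf26 is their neighbor in the genome and also lacks one. In neutrophils, which are short-lived, signals of this family are known to shift the balance between survival and apoptosis.

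RNA-seq was performed on neutrophils with 1 library per mouse and 4 mice per group, all FVB mice of 10 weeks housed in SOPF conditions. Tumor-associated neutrophils (TANs) came from mammary tumors of PyMT mice, which carry the polyoma middle T transgene of the mammary gland, and of PyMT-Cxcr2-/- mice, which carry the same oncogene and lack the chemokine receptor Cxcr2 in all their cells, not in neutrophils alone. The remaining group was bone marrow (BM) neutrophils of WT mice, which carry neither change, so tissue and tumor cannot be told apart in a comparison of TANs with BM. Cells were enriched with CD11b beads and sorted as CD45+, CD11b+, Ly6G+ and F4/80 negative.

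Libraries held 25032704 to 51351569 counts on genes. Scaled by the library total alone, 3 counts correspond to 0.0584 to 0.12 CPM, for counting error only. All other CPM values are the count scaled by the library total with TMM factors. Cxcr2 was at 1196 ± 224 CPM (SD, n = 4) in PyMT TANs and 9.384 ± 0.576 CPM in the TANs without it, with 2035 ± 195 CPM in BM, which matches the labelled genotypes. Neutrophil marker genes summed to 10400 to 16600 CPM, 17600 to 28800 CPM and 74000 to 98300 CPM in PyMT TANs, PyMT-Cxcr2-/- TANs and BM. Of these 8 markers 4 rose (Ly6g, S100a8, S100a9 and Retnlg) and 1 fell, Cxcr2 itself, in PyMT-Cxcr2-/- TANs against PyMT TANs, and the part of this shift in the differences below was not tested. Macrophage markers, of which the sort should leave few, summed to 2190 to 5270 CPM, 2380 to 4960 CPM and 256 to 358 CPM. Mammary epithelial markers summed to 47.2 to 451 CPM, 83.6 to 311 CPM and 0.06 to 0.516 CPM, and Krt8, Krt14, Krt5, Csn2 and Csn3 were at 0 in every BM library. Between the TANs, 0 of 9 macrophage and 0 of 9 epithelial markers passed edgeR's test or DESeq2, and 0 of either list had an unadjusted p under 0.05, while all 9 macrophage markers and all 6 epithelial markers tested rose in both kinds of TANs over BM, and their part in any difference between TANs and BM was not tested. Among 4 T and NK cell markers tested between the TANs, Cd3d rose in edgeR (1.16, SE 0.25, adjusted p = 0.04). The others, Cd4 (-1.71, SE 0.41), Cd8a (-0.56, SE 1.47) and Trac (-0.52, SE 0.85), lay below 0 and were not past the thresholds in edgeR. DESeq2 called 1 of the 4 higher and 1 lower. The 6 fibroblast markers had a median of 1.85 between the TANs, with 2 at an unadjusted p under 0.05 and 0 past the thresholds in edgeR or DESeq2, and summed to 0.801 to 13.7 CPM in PyMT TANs and 1.77 to 35.1 CPM in PyMT-Cxcr2-/- TANs. In these bulk samples, fewer cells of a type and less RNA per cell cannot be told apart.

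The 3 clustered receptors lie on the minus strand of chromosome 7 in GRCm38/mm10. Tnfrsf26 (ENSMUSG00000045362.8) spans chr7:143607659-143628722, Tnfrsf22 (ENSMUSG00000010751.15) spans chr7:143634806-143649661, and Tnfrsf23 (ENSMUSG00000037613.16) spans chr7:143665809-143685872. Their coding sequences were compared because the counts of near copies can be mixed. Tnfrsf22 and Tnfrsf23 were identical at 90.7% of aligned coding bases, while Tnfrsf26 was identical to them at 58.7% and 55.7%. The fourth coding exon, which has 112 bases in each of the 3 genes, shows this relation, with its bases printed along the minus strand and those that all 3 genes share in capitals.
Tnfrsf26, chr7:143617841-143617952: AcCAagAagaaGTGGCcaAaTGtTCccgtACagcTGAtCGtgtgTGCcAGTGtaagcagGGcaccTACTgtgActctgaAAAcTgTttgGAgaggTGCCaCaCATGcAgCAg
Tnfrsf22, chr7:143640752-143640863: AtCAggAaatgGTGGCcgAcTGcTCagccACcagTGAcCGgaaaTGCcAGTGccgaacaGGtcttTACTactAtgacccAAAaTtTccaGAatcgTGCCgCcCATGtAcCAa
Tnfrsf23, chr7:143670832-143670943: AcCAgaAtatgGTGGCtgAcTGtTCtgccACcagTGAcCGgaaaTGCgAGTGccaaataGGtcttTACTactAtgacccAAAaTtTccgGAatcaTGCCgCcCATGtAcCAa

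In this exon 54 bases (48.2%) were the same in all 3 genes. Tnfrsf22 and Tnfrsf23 matched at 101 of its 112 bases (90.2%), Tnfrsf26 and Tnfrsf22 at 59 (52.7%) and Tnfrsf26 and Tnfrsf23 at 58 (51.8%). Of the 100-base windows of Tnfrsf22 transcripts, 8.97% occurred unchanged in Tnfrsf23 transcripts, and 9.31% of the Tnfrsf23 windows occurred in Tnfrsf22. No such window of Tnfrsf26 occurred in either gene. The split of reads between Tnfrsf22 and Tnfrsf23 is therefore uncertain, and the counts of Tnfrsf26 are not touched by this likeness. The windows were shorter than the paired reads that the paper describes, so these shares do not measure how many reads were affected.

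Tnfrsf26 stood at 36.58, 24.91, 24.03 and 26.73 CPM in the 4 PyMT TAN libraries. The PyMT-Cxcr2-/- TANs were at 7.895, 8.901, 4.419 and 3.904 CPM, and the WT BM neutrophils at 8.098, 5.664, 5.303 and 7.512 CPM. Each PyMT TAN library was above every library of the other two groups, which overlapped each other. The level was 4.49-fold lower in PyMT-Cxcr2-/- TANs than in PyMT TANs (log2 fold change -2.17, SE 0.29) and 4.42-fold higher in PyMT TANs than in BM (2.14, SE 0.21). PyMT-Cxcr2-/- TANs and BM differed by 0.06 on the log2 scale (SE 0.27), so that of the 3 cluster genes Tnfrsf26 had the level without Cxcr2 that was closest to BM.

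Tnfrsf23 had the highest level per kb of exon in the cluster. It was at 102, 61.14, 66.93 and 60.24 CPM in PyMT TANs, at 33.86, 25.73, 26.47 and 27.19 CPM in PyMT-Cxcr2-/- TANs, and at 20.42, 18.17, 15.08 and 17.72 CPM in WT BM neutrophils. The 3 groups did not overlap, and replicate 1 of PyMT TANs stood above its group. The difference between the TANs was -1.36 (SE 0.19, 2.57-fold lower without Cxcr2), and both TANs were above BM, by 2.09 (SE 0.19, 4.25-fold) and 0.80 (SE 0.13, 1.74-fold).

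Tnfrsf22 had the lowest level per kb of exon in the cluster. It was measured at 10.01, 14.47, 6.025 and 9.424 CPM in PyMT TANs (177 to 542 counts), at 3.693, 4.053, 3.242 and 2.425 CPM in PyMT-Cxcr2-/- TANs (118 to 196 counts) and at 1.32, 0.9286, 0.946 and 1.261 CPM in WT BM neutrophils (30 to 45 counts). Its groups did not overlap either, and it showed the same order of groups as Tnfrsf23. The log2 fold changes were -1.58 (SE 0.30, 2.99-fold lower) between the TANs, 3.23 (SE 0.33, 9.36-fold higher) in PyMT TANs over BM and 1.72 (SE 0.27, 3.3-fold higher) in PyMT-Cxcr2-/- TANs over BM.

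Summed per kb of exon, the cluster reached 29.4 ± 6.73 CPM per kb in PyMT TANs (SD, n = 4) and 9.89 ± 1.5 in PyMT-Cxcr2-/- TANs, against 6.83 ± 0.967 in BM. Tnfrsf23 made up 61.9% ± 3.96, 72.6% ± 6.77 and 66.1% ± 3.01 of this sum in the 3 groups. The share of Tnfrsf26 was 29.8% ± 1.66 in PyMT TANs and 30.1% ± 2.68 in BM, with ranges of 28.8% to 32.3% and 26.8% to 32.9%, and 19.3% ± 5.88 in PyMT-Cxcr2-/- TANs, with a range of 14% to 27.1%. The share of Tnfrsf22 was 8.28% ± 3.37 and 8.03% ± 1.25 in the TANs and 3.86% ± 0.361 in BM. The estimated fall without Cxcr2 was largest for Tnfrsf26 (-2.17, SE 0.29), followed by Tnfrsf22 (-1.58, SE 0.30) and Tnfrsf23 (-1.36, SE 0.19). Whether these falls differ from each other was not tested.

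Among the receptors with a death domain, Tnfrsf1a, the broadly expressed TNF receptor (ENSMUSG00000030341.17, chr6:125349362-125362484, plus strand), was lowest in PyMT TANs. Its values were 443.8, 365.3, 419.5 and 290.2 CPM in PyMT TANs, 414.1, 430, 525.9 and 511.8 CPM in those of PyMT-Cxcr2-/- mice and 563.8, 502.8, 468.1 and 450.9 CPM in WT BM neutrophils. PyMT TANs lay below BM without overlap, by -0.32 on the log2 scale (SE 0.15), and PyMT-Cxcr2-/- TANs overlapped both other groups, with differences of 0.30 from PyMT TANs (SE 0.16) and 0.06 from BM (SE 0.12). Fas, the receptor of Fas ligand (ENSMUSG00000024778.13, chr19:34290666-34327772, plus strand), ranged from 35.67 to 60.08 CPM over the 12 libraries. It was at 52.3, 35.67, 60.08 and 56.38 CPM in PyMT TANs, 46.43, 37.09, 55.56 and 53.49 CPM in those of PyMT-Cxcr2-/- mice and 57.19, 47.48, 54.55 and 55.58 CPM in WT BM neutrophils. All 3 groups overlapped, and its log2 differences were -0.09 between the TANs (SE 0.19), 0 for PyMT TANs over BM (SE 0.16) and -0.02 for PyMT-Cxcr2-/- TANs over BM (SE 0.12).

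Tnfrsf10b (ENSMUSG00000022074.6, chr14:69767472-69784411, plus strand), the TRAIL receptor that carries a death domain, was the one member higher in PyMT-Cxcr2-/- TANs than in PyMT TANs without overlap. It was at 6.511, 7.262, 10.62 and 7.614 CPM in PyMT TANs, 15.77, 15.37, 18.05 and 18.68 CPM in those of PyMT-Cxcr2-/- mice and 2.459, 2.321, 2.981 and 1.962 CPM in WT BM neutrophils. The groups were separate in all 3 pairs, with log2 differences of 1.08 between the TANs (SE 0.21, 2.12-fold), 1.79 for PyMT TANs over BM (SE 0.27, 3.45-fold) and 2.94 for PyMT-Cxcr2-/- TANs over BM (SE 0.17, 7.65-fold). Its order of groups differed from that of the TRAIL receptors without a death domain. Per kb of exon, the summed level of Tnfrsf22 and Tnfrsf23 was 14.9 ± 6.09 times that of Tnfrsf10b in PyMT TANs (range 9.4 to 23.5), 2.58 ± 0.496 times in PyMT-Cxcr2-/- TANs (2.17 to 3.26) and 11 ± 2.56 times in WT BM neutrophils (7.37 to 13.3). This ratio was lower in each PyMT-Cxcr2-/- TAN library than in any library of the other groups, and those overlapped.

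Tnfrsf1b, the TNF receptor without a death domain (ENSMUSG00000028599.10, chr4:145213463-145246870, minus strand), separated TANs from BM. PyMT TANs were at 839.8, 684.5, 782.7 and 694.1 CPM, PyMT-Cxcr2-/- TANs at 844.7, 833.6, 951.6 and 851.6 CPM and WT BM neutrophils at 161.1, 168.9, 127.8 and 117 CPM. The TANs overlapped (0.21, SE 0.13), and each TAN library was above all of BM, by 2.45 for PyMT TANs (SE 0.15, 5.47-fold) and 2.73 for PyMT-Cxcr2-/- TANs (SE 0.14, 6.66-fold). Per kb of exon, the level of Tnfrsf1b was 1.36 ± 0.175 times that of Tnfrsf1a in PyMT TANs and 1.26 ± 0.11 times in PyMT-Cxcr2-/- TANs, against 0.196 ± 0.0227 times in BM, where Tnfrsf1a was the more abundant TNF receptor in all 4 mice.

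**Figure D1:**
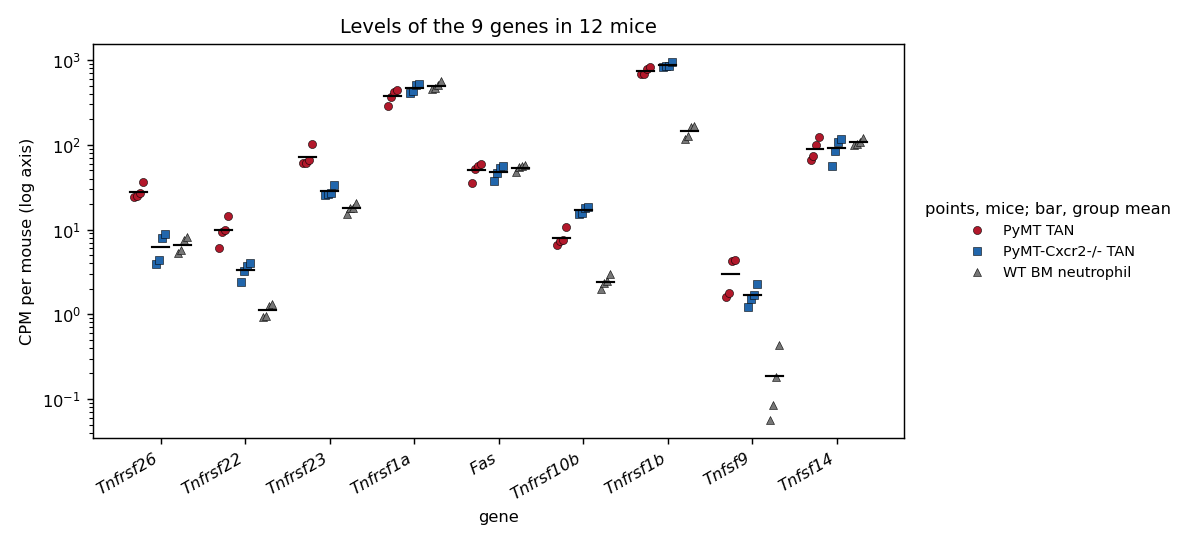
Levels of the 9 genes in CPM (log axis), with 1 point per mouse and a bar at the mean of each group of 4. The cluster receptors Tnfrsf26, Tnfrsf22 and Tnfrsf23 are highest in PyMT TANs, Tnfrsf10b is highest in PyMT-Cxcr2-/- TANs, Tnfrsf1b and Tnfsf9 are high in both TANs over BM, and Fas and Tnfsf14 overlap in all 3 groups.

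The ligand Tnfsf9 (ENSMUSG00000035678.8, chr17:57105325-57107757, plus strand), which binds Tnfrsf9 and costimulates T cells, had the fewest counts of the 9 genes. It was at 1.791, 1.602, 4.391 and 4.306 CPM in PyMT TANs (60 to 207 counts), 2.28, 1.667, 1.528 and 1.233 CPM in PyMT-Cxcr2-/- TANs (60 to 121 counts) and 0.1799, 0.4333, 0.086 and 0.05606 CPM in WT BM neutrophils (2 to 14 counts). PyMT TANs fell into a lower and a higher pair that together overlapped PyMT-Cxcr2-/- TANs, and all BM libraries were below all TANs. Mammary epithelial markers summed to 47.2 and 61.4 CPM in the lower pair and 329 and 451 CPM in the higher pair. In PyMT-Cxcr2-/- TANs they summed to 240, 311, 83.6 and 118 CPM, and the part of epithelial RNA in the level of Tnfsf9 was not tested. The log2 differences of Tnfsf9 were -0.85 between the TANs (SE 0.45), 4.06 for PyMT TANs over BM (SE 0.72) and 3.29 for PyMT-Cxcr2-/- TANs over BM (SE 0.52). The differences over BM rest on few counts and became 4.8 and 4.06 without replicate 2 of BM. An antisense gene, Gm11110, overlaps 192 of its exon bases on the other strand, and the strand setting of the counting was not given, so its counts are uncertain to that extent.

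Tnfsf14 (LIGHT, ENSMUSG00000005824.7, chr17:57189492-57194177, minus strand), a ligand of Tnfrsf14 and of the lymphotoxin receptor Ltbr, lies close to Tnfsf9 on chromosome 17. Its values were 122.3, 98.52, 65.4 and 73.25 CPM in PyMT TANs, 84.42, 56.49, 116.5 and 108.1 CPM in those of PyMT-Cxcr2-/- mice and 121.6, 106.9, 100 and 101.2 CPM in WT BM neutrophils. The 3 groups overlapped, with both TANs more spread than BM. The log2 differences were 0.02 between the TANs (SE 0.25), -0.19 for PyMT TANs over BM (SE 0.18) and -0.10 for PyMT-Cxcr2-/- TANs over BM (SE 0.18).

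Ordered by mean CPM per kb of exon, PyMT TANs expressed Tnfrsf1b (197 ± 19.4), Tnfrsf1a (147 ± 26.3), Tnfsf14 (48.7 ± 14), Fas (24.8 ± 5.22), Tnfrsf23 (18.3 ± 5.01), Tnfrsf26 (8.72 ± 1.8), Tnfrsf22 (2.37 ± 0.823), Tnfsf9 (2.34 ± 1.19) and Tnfrsf10b (1.47 ± 0.331). In that order 3 pairs of neighbors were not separated in every mouse, since Fas was above Tnfrsf23 in 3 of 4 mice, Tnfrsf22 above Tnfsf9 in 2 of 4 and Tnfsf9 above Tnfrsf10b in 3 of 4. PyMT-Cxcr2-/- TANs had the same first 5 genes in the same order, followed by Tnfrsf10b (3.11 ± 0.301), Tnfrsf26 (1.95 ± 0.774), Tnfsf9 (1.3 ± 0.342) and Tnfrsf22 (0.795 ± 0.167), each above the next in 4 of 4 mice. In WT BM neutrophils, Tnfrsf1a came first (192 ± 19.2), Tnfrsf1b (37.6 ± 6.6) came after Tnfsf14 (58.2 ± 5.37), and the lowest were Tnfrsf10b (0.446 ± 0.0775), Tnfrsf22 (0.264 ± 0.0487) and Tnfsf9 (0.146 ± 0.133). In BM, Tnfrsf22 was above Tnfsf9 in 3 of 4 mice. Tnfrsf10b took the last place in PyMT TANs and the place after Tnfrsf23 without Cxcr2.

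Each comparison was also fitted across all genes with edgeR's quasi-likelihood test, and a gene past the thresholds differed at least 1.5-fold with a p, adjusted by Benjamini-Hochberg, under 0.05. All 9 genes passed the filter on low counts in each fit. Between the TANs, 1 of the 9 was past the thresholds as higher (Tnfrsf10b) and 3 as lower (Tnfrsf26, Tnfrsf22 and Tnfrsf23), and the same 4 did not overlap, where 1.98% of the 18463 genes tested were past the thresholds (1.38% higher and 0.596% lower) and 12% did not overlap. In PyMT TANs against BM, 6 of 9 were higher and 0 lower, against 53.3% of all genes past the thresholds (30.1% higher and 23.2% lower), and 7 of 9 did not overlap, against 58.3%. For PyMT-Cxcr2-/- TANs against BM, 5 of 9 were higher and 0 lower, against 59.5% of all genes past the thresholds (34.4% higher and 25.1% lower), and 5 did not overlap, against 65.9%. Since these levels entered the choice of the genes, the counts are not results about them. Their median log2 fold changes were -0.09, 2.09 and 0.80 in the 3 comparisons, against -0.07, 0.09 and 0.09 over all genes tested. The comparisons share mice, so the 3 sets of values are not independent.

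With each mouse left out in turn, the difference between the TANs ranged from -2.37 to -1.96 for Tnfrsf26, -1.45 to -1.11 for Tnfrsf23, -1.75 to -1.34 for Tnfrsf22 and 1.04 to 1.25 for Tnfrsf10b. Tnfrsf26 and Tnfrsf23 were past the thresholds in 8 of these 8 fits, and Tnfrsf22 and Tnfrsf10b in only 3. The number of all genes past the thresholds moved as well. It was 10 higher and 13 lower without replicate 2 of PyMT TANs, and 427 higher and 86 lower without replicate 1. Since the levels of the members entered their choice, these calls are not results about them.

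**Figure D2:**
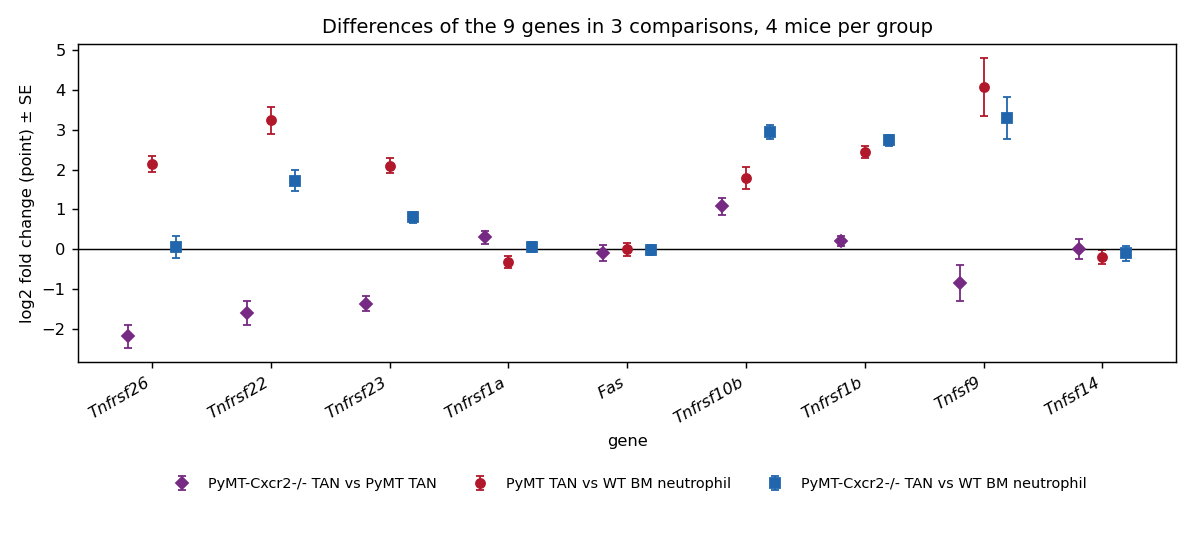
Log2 fold changes (points) with SE (bars) of the 9 genes in the 3 comparisons, 4 mice per group. The 3 cluster receptors lie below 0 between the TANs, at -2.17, -1.58 and -1.36, and Tnfrsf10b above it at 1.08, while Fas stays near 0 in all 3 comparisons.

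Promoter windows of 250 bases before to 50 bases after the start site were found in RefSeq (GRCm38.p6) for 5 of the 9 genes, namely Tnfrsf1b, Tnfrsf1a, Tnfrsf23, Tnfsf14 and Fas, and were searched on both strands for 4 motifs. The GAS motif TTCNNNGAA was found once each in Tnfrsf1b, Tnfrsf1a and Fas, and in 8.3% of all 32851 promoters. The AP-1 motif TGANTCA was found once each in Fas and Tnfsf14, and in 7.81% of all promoters. The CRE motif TGACGTCA (1.79% of promoters) and the NF-kB motif (6.93%) were found in none of the 5, and Tnfrsf23 held none of the 4 motifs.

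The genes around the cluster were examined next. Within 500 kb of it lie 37 other genes, of which 14 could be tested between the TANs. 1 of the 14 was past the thresholds, as lower, against 1.98% of all genes, and the median was -0.17. It was E230032D23Rik (ENSMUSG00000109251.1, chr7:143628024-143670614, plus strand), a noncoding RNA gene that runs against the cluster and overlaps exons of Tnfrsf26 by 107 bases and of Tnfrsf23 by 164 bases. It was at 8.618, 8.597, 11.68 and 6.886 CPM in PyMT TANs, 1.978, 1.077, 3.324 and 2.363 CPM in those of PyMT-Cxcr2-/- mice and 0.7198, 1.548, 0.774 and 0.5326 CPM in WT BM neutrophils. It fell in PyMT-Cxcr2-/- TANs against PyMT TANs by 2.03 on the log2 scale (SE 0.35, edgeR quasi-likelihood, Benjamini-Hochberg adjusted p = 0.018), without overlap, and rose in both TANs over BM by 3.39 (SE 0.38, edgeR adjusted p = 1.9e-05) and, with overlap, 1.43 (SE 0.41, edgeR adjusted p = 0.0065). Without replicate 2 of PyMT TANs or replicate 4 of PyMT-Cxcr2-/- TANs the edgeR adjusted p between the TANs was 0.067 and 0.061. Without the strand setting of the counting, its reads and those of its overlapping partners cannot be told apart there.

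The 13 other neighbors tested between the TANs ranged from -1.49 (Kcnq1, SE 1.26, edgeR adjusted p = 0.68) to 0.30 (Nadsyn1, SE 0.34, edgeR adjusted p = 0.79), and all of them overlapped. Of the tested genes nearest to the cluster on each side, Cars, a tRNA synthetase gene 7.57 kb from the Tnfrsf26 end, was at -0.27 (SE 0.14, edgeR adjusted p = 0.42), and Osbpl5, a lipid transfer gene 2.89 kb from the Tnfrsf23 end, was at -0.60 (SE 0.54, edgeR adjusted p = 0.70). Of the 11 neighbors tested in PyMT TANs against BM, 7 rose and 0 fell, 63.6% in all against 53.3% of all genes, and Osbpl5 rose by 3.77 (SE 0.68, edgeR adjusted p = 0.00062). Of the 13 tested in PyMT-Cxcr2-/- TANs against BM, 7 rose and 1 fell, 61.5% in all against 59.5% of all genes, and Osbpl5 rose by 3.23 (SE 0.39, edgeR adjusted p = 6.3e-06). Both rises of Osbpl5 start from 5 to 13 counts per BM library, and its PyMT TAN libraries spread from 0.7164 to 6.264 CPM.

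**Figure D3:**
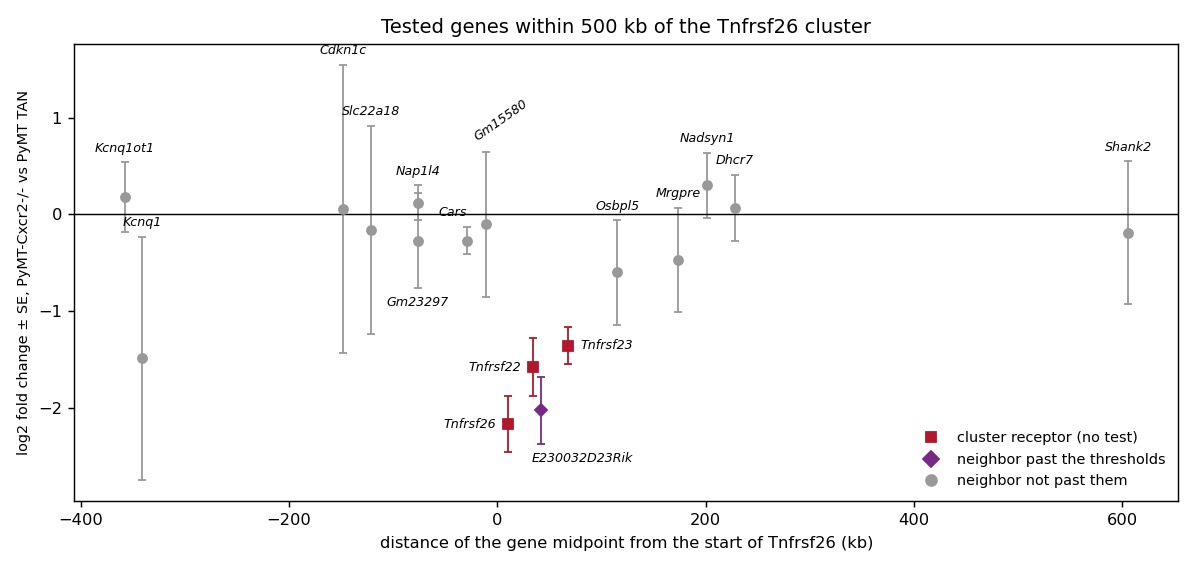
Log2 fold changes (points) with SE (bars) between PyMT-Cxcr2-/- and PyMT TANs for the tested genes within 500 kb of the cluster, by the distance of each gene's midpoint from the start of Tnfrsf26 in kb. The cluster receptors (squares) and E230032D23Rik (diamond) lie between -2.17 and -1.36, below Cars at -0.27 and Osbpl5 at -0.60 on either side, and Kcnq1, farther away, lies in the same range at -1.49 with an SE of 1.26.

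By the root mean square difference of centred log2 CPM over the 12 libraries, the genes whose pattern was most like that of Tnfrsf26, among 19211, were Tns1 (0.416), Gm16754 (0.487), Gm31718 (0.499), Tnfrsf23 (0.504) and Saal1 (0.513). Tns1, which encodes an actin-binding protein of focal adhesions, was at 146 ± 18.2, 43.08 ± 10 and 39.28 ± 3.89 CPM in PyMT TANs, PyMT-Cxcr2-/- TANs and BM. Saal1 was at 8.085 ± 0.681, 3.019 ± 0.915 and 1.457 ± 0.238 CPM in the same order. Tnfrsf22 came at place 254 (0.762), E230032D23Rik at place 2437 (0.988) and Tnfrsf10b, the least alike of the members, at place 12331 (1.57). The 12 libraries fall into 3 groups, whose means weigh in this measure.

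The ligands of these receptors were measured in the same libraries. Tnf, the ligand of Tnfrsf1a and Tnfrsf1b, was at 123.4, 140.2, 230.8 and 126.1 CPM in PyMT TANs, 65.72, 42.97, 68.3 and 84.21 CPM in those of PyMT-Cxcr2-/- mice and 52.34, 39.59, 47.39 and 46.89 CPM in WT BM neutrophils. It fell in PyMT-Cxcr2-/- TANs against PyMT TANs by 1.25 (SE 0.24, edgeR adjusted p = 0.026) and rose in PyMT TANs over BM by 1.81 (SE 0.21, edgeR adjusted p = 2.3e-05). The fall was not past the thresholds without replicate 2 of PyMT TANs (edgeR adjusted p = 0.085) or replicates 1, 2 or 3 of PyMT-Cxcr2-/- TANs (0.069, 0.052 and 0.091), nor with trends with GC content and gene length removed (0.082). Over BM, PyMT-Cxcr2-/- TANs were higher in Tnf by 0.62 (SE 0.16, edgeR adjusted p = 0.004), a call lost to the fold threshold without their replicate 4 (0.48) or BM replicate 2 (0.54).

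Tnfsf10 (TRAIL) was at 1.991 ± 0.533 CPM in PyMT TANs, 0.9874 ± 0.393 CPM in those of PyMT-Cxcr2-/- mice and 0.3306 ± 0.193 CPM in BM (SD, n = 4). The TANs overlapped and did not pass the test against each other (-1.01, SE 0.5, edgeR adjusted p = 0.37), while PyMT TANs rose over BM by 2.65 (SE 0.6, edgeR adjusted p = 0.0029) and PyMT-Cxcr2-/- TANs, with overlap, by 1.70 (SE 0.51, edgeR adjusted p = 0.0088). Fasl, the ligand of Fas, was at 1.954 ± 1.15 and 1.753 ± 0.735 CPM in the TANs, with at most 2 counts in each BM library. The TANs differed by -0.16 (SE 0.54, edgeR adjusted p = 0.95), and all TAN libraries were above all of BM. Lta, a further ligand of both TNF receptors, was below 0.5 CPM on average in each group and passed no test.

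Of the receptors of Tnfsf9 and Tnfsf14, Tnfrsf9 was at 2.898 ± 0.969, 1.72 ± 1.41 and 0.09043 ± 0.0802 CPM in PyMT TANs, PyMT-Cxcr2-/- TANs and BM. It rose in both TANs over BM by 5.03 (SE 0.78, edgeR adjusted p = 0.00021) and 4.37 (SE 0.74, edgeR adjusted p = 0.00015), from at most 6 counts per BM library, and the latter was 3.66 without replicate 1 of PyMT-Cxcr2-/- TANs. Tnfrsf14 was at 17.75 ± 4.7, 22.79 ± 4.92 and 50.82 ± 7.5 CPM and fell in both TANs against BM, by 1.45 (SE 0.21, edgeR adjusted p = 0.00011) and 1.02 (SE 0.15, edgeR adjusted p = 3.3e-05). Ltbr was at 46.12 ± 13.6, 51.66 ± 2.79 and 75.45 ± 8.88 CPM and fell in PyMT TANs against BM by 0.65 (SE 0.19, edgeR adjusted p = 0.014), which was below the fold threshold without replicate 4 of PyMT TANs (-0.50). Neither receptor of Tnfsf14 passed the test between the TANs.

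Over the 37 other genes of the superfamily, 27 were tested between the TANs, and 0 rose and 1 fell, Tnf, which is 3.7% against 1.98% of all genes. Of the 18 receptors among them none passed edgeR's test with Benjamini-Hochberg adjustment, 2 had an unadjusted p under 0.05, and DESeq2 called 1, Tnfrsf8. In edgeR, Tnfrsf8 (CD30) was lower without overlap at -1.25 (SE 0.35, adjusted p = 0.1). In PyMT TANs against BM, 12 of 23 rose and 7 fell, 82.6% in all against 53.3% of all genes, with a median of 1.36 against 0.09. For PyMT-Cxcr2-/- TANs, 14 of 26 rose and 5 fell, 73.1% against 59.5%, with a median of 1.07.

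Tnfrsf11a (RANK, a receptor best known in osteoclasts) had the largest rise of this list over BM in both kinds of TANs. It was at 18.52, 52.36, 58.01 and 32.18 CPM in PyMT TANs and 50.56, 53.05, 34.94 and 26.05 CPM in PyMT-Cxcr2-/- TANs, with 2 to 12 counts in each BM library (0.05606 to 0.3714 CPM). Its rises were 8.06 (SE 0.58, edgeR adjusted p = 7.5e-07) and 8.17 (SE 0.42, edgeR adjusted p = 1.6e-08), and 8.82 and 8.97 without replicate 2 of BM. Within each kind of TANs, Tnfrsf11a ranked the libraries as their macrophage marker sums did. Those sums were 2190, 4880, 5270 and 3610 CPM in PyMT TANs and 4240, 4960, 2830 and 2380 CPM in PyMT-Cxcr2-/- TANs. The part of macrophage RNA in the level of Tnfrsf11a was not tested. Tnfsf8, the ligand of Tnfrsf8, was at 4.456 ± 1.37 and 3.801 ± 1.53 CPM in the TANs with at most 4 counts in each BM library, and Tnfrsf8 rose over BM by 3.88 (SE 0.33, edgeR adjusted p = 2.3e-06) and 2.70 (SE 0.37, edgeR adjusted p = 2.2e-05). Among those that fell, Tnfsf13b (BAFF), a survival factor of B cells, was at 19.22 ± 7.07 and 21.59 ± 2.17 CPM in the TANs and 91.27 ± 6.95 CPM in BM (-2.18, SE 0.23, edgeR adjusted p = 1.1e-05 and -1.94, SE 0.1, edgeR adjusted p = 5.9e-09). Ltb, a lymphotoxin subunit, fell by 1.37 (SE 0.23, edgeR adjusted p = 0.00038) and 1.24 (SE 0.16, edgeR adjusted p = 1.1e-05).

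Of 28 genes that act close to these receptors in death and survival signaling, 27 were tested. Between the TANs, 0 rose and 1 fell, 3.7% against 1.98% of all genes, with a median of 0.06 against -0.07. The gene that fell was Casp8, the initiator caspase of death receptors, at 38.27, 42.88, 46.81 and 39.48 CPM in PyMT TANs, 29.26, 28.35, 22.57 and 24.08 CPM in those of PyMT-Cxcr2-/- mice and 26.75, 24.76, 24.57 and 24.16 CPM in BM. The TANs did not overlap, with PyMT-Cxcr2-/- TANs near the BM level (0.19, SE 0.12, edgeR adjusted p = 0.16). The fall was -0.69 (SE 0.15, edgeR adjusted p = 0.039), and it was no longer past the thresholds when any single mouse was left out (edgeR adjusted p from 0.05 to 0.19), with no filter on low counts (0.077), with DESeq2 size factors (0.053) or with trends with GC content and gene length removed (0.13). Casp8 rose in PyMT TANs over BM by 0.81 (SE 0.13, edgeR adjusted p = 0.00022).

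Ripk3, a kinase of necroptosis that Casp8 restrains, was at 21.66 ± 5.35, 12.63 ± 1.37 and 3.717 ± 0.546 CPM in PyMT TANs, PyMT-Cxcr2-/- TANs and BM. The TANs did not overlap, but the difference missed the threshold (-0.78, SE 0.2, edgeR adjusted p = 0.078). It rose in both TANs over BM, by 2.61 (SE 0.23, edgeR adjusted p = 3.1e-06) and 1.90 (SE 0.17, edgeR adjusted p = 5.1e-07). Mlkl, its target, was at 1.693 ± 1.04, 1.728 ± 0.615 and 1.993 ± 0.116 CPM and passed no test. The kinase Ripk1 (87.1 ± 13, 111.1 ± 12.8 and 110.2 ± 8.99 CPM), the Casp8 inhibitor Cflar (199.8 ± 37.6, 223.7 ± 39 and 251.4 ± 12.3 CPM) and the adaptor Tradd (8.704 ± 3.44, 8.195 ± 1.32 and 13.48 ± 1.32 CPM) were not past the thresholds in any comparison, although Tradd was only just under the fold threshold in PyMT-Cxcr2-/- TANs against BM (-0.58, SE 0.16, edgeR adjusted p = 0.005). The adaptor Fadd, at 3.898 ± 1.95, 2.856 ± 0.99 and 1.547 ± 0.688 CPM, overlapped between all groups. Its edgeR adjusted p was 0.026 for PyMT TANs over BM (1.4, SE 0.48) and 0.018 for PyMT-Cxcr2-/- TANs over BM (1.02, SE 0.35), and both calls were lost when BM replicate 2 (0.081 and 0.053) or BM replicate 3 (0.087 and 0.056) was left out. The former was also lost without PyMT TAN replicate 3 (0.062) or BM replicate 1 (0.067), and the latter without PyMT-Cxcr2-/- TAN replicate 1 (0.075).

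Against BM, 7 of the 27 rose and 6 fell in PyMT TANs (48.1%, against 53.3% of all genes), and 6 rose and 5 fell in PyMT-Cxcr2-/- TANs (40.7%, against 59.5%). The largest rises were those of Traf1 and Tnfaip3. Traf1, which binds Tnfrsf1b complexes, was at 85.96 ± 14.4, 80.51 ± 19 and 1.722 ± 0.546 CPM (5.71, SE 0.26, edgeR adjusted p = 5.2e-08 and 5.68, SE 0.25, edgeR adjusted p = 3e-09 over BM). Tnfaip3 (A20), an inhibitor of NF-kB signaling, was at 2473 ± 200, 2653 ± 718 and 73.17 ± 3.55 CPM (5.15, SE 0.14, edgeR adjusted p = 4.3e-09 and 5.31, SE 0.2, edgeR adjusted p = 3.9e-10), and Birc3, an inhibitor of apoptosis protein, was at 632.6 ± 103, 837.6 ± 164 and 165.4 ± 9.91 CPM. The TANs overlapped for each of these 3 genes. Bid, which Casp8 cleaves, fell, at -1.79 (SE 0.16, edgeR adjusted p = 3.5e-06) in PyMT TANs and -1.31 (SE 0.14, edgeR adjusted p = 2.8e-06) in PyMT-Cxcr2-/- TANs against BM.

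**Figure D4:**
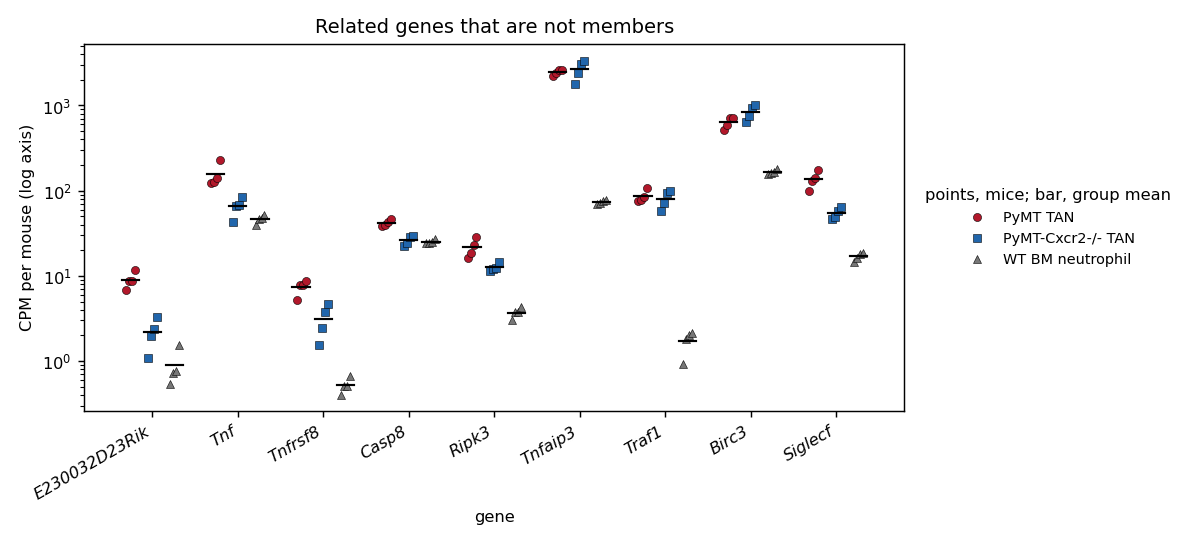
Levels in CPM (log axis) of genes related to the 9, with 1 point per mouse and a bar at the mean of each group of 4. E230032D23Rik, Tnf, Tnfrsf8, Casp8, Ripk3 and Siglecf are higher in all PyMT TANs than in all PyMT-Cxcr2-/- TANs, while Tnfaip3, Traf1 and Birc3 overlap between the TANs and are above BM in both.

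Markers of other cells were also compared with the order of groups seen for Tnfrsf23 and Tnfrsf22. Siglecf, a surface protein of eosinophils that neutrophils can also express, was at 173.4, 128.2, 142.1 and 98.42 CPM in PyMT TANs, 58.26, 46.1, 63.86 and 49.64 CPM in those of PyMT-Cxcr2-/- mice and 18.68, 14.73, 16.4 and 17.91 CPM in BM. It fell between the TANs by 1.32 (SE 0.18, edgeR adjusted p = 0.01). Cd4, a marker of T cells, had the same order of groups without overlap, at -1.71 between the TANs (SE 0.41, edgeR adjusted p = 0.061) and 5.16 (SE 0.79, edgeR adjusted p = 2e-04) and 3.53 (SE 0.59, edgeR adjusted p = 0.00013) over BM. In the same list Cd3d went the other way, at 1.16 between the TANs and -4.09 and -2.86 against BM, and Cd3g was at -6.05 and -3.97 against BM. The 8 T and NK cell markers summed to 14.9 to 31.9 CPM, 24.6 to 44.2 CPM and 211 to 246 CPM in PyMT TANs, PyMT-Cxcr2-/- TANs and BM. The macrophage markers Adgre1 and C1qa were at -0.32 and -0.27 between the TANs, with overlap. The 5 markers of eosinophils, basophils and mast cells summed to 98.7 to 174 CPM, 46.3 to 64 CPM and 17 to 22.3 CPM in the 3 groups, nearly all of it Siglecf. The granule genes that define eosinophils were at most 0.08429 CPM (Epx) and 0.1264 CPM (Prg2) in any TAN library, and the basophil protease Mcpt8 was at 0 in all TANs. The part of cells expressing Siglecf or Cd4 in the levels of the cluster was not tested.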

How the data were processed

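Neutrophils of 12 mice in 3 groups of 4 were profiled by RNA-seq, 1 library per mouse. The authors depleted ribosomal RNA, sequenced directional paired-end libraries, aligned reads to mm10 with STAR and counted them with HTSeq, and the deposited values are raw counts per gene. FastQC and HTSeq are named in the submitters' processing notes, and the annotation release and strand setting are not given in the sources used here. Between 32% and 52.5% of each library's reads were assigned to no feature. With the other unassigned classes, 46.3% to 60.5% were left out. Of 55335 identifiers, 55154 (99.7%) matched GENCODE M21, which supplied coordinates, exon lengths and sequences.

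CPM used TMM factors over the 12 libraries. Each comparison was fitted on its 2 groups with edgeR 4.0.16 in R 4.3.3 (TMM, filterByExpr, robust quasi-likelihood test), with Benjamini-Hochberg adjustment over all genes tested and thresholds of 0.05 and 1.5-fold. The SE of a log2 fold change is its size over the square root of F. CPM per kb used the union of exons. Centred log2 CPM used a prior count of 2. Sequences were compared with Biopython 1.88 in Python 3.11.15, and figures were drawn with matplotlib 3.10.9.

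The members and lists were chosen with earlier results of these data known. The genes named are the 9 members, their ligands, partner receptors and proximal signaling genes, the superfamily and signaling genes with the largest changes past the thresholds (up to 4 each way), the neighbors past the thresholds and the nearest tested on each side, and the 5 genes most like Tnfrsf26. Tnfsf12, Tnfrsf25, Tnfrsf4, Relt, Adam17 and Sharpin also met the rule and are given by count, and some others that met it are not reported here. Tnfrsf8, Kcnq1 and Nadsyn1 between the TANs and the cell type markers were named after their values were seen.

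P-values weigh a difference between groups against the spread between these mice. The numbers of the mice name different animals in each group and were not taken as pairs. Alternatives were DESeq2 size factors, no filter, DESeq2 1.42.0, 1 fit of 12 libraries, a replicate block, removal of trends with GC content and length (mgcv 1.9.3, known for 99.9% of genes tested) alone or with the block, and each mouse left out. On simulated counts with 200 genes changed by 2 on the log2 scale, the test recovered 110 (55%) of them with 2 false calls between the TANs (18463 genes), 126 (63%) with 10 for PyMT TANs against BM (17153 genes) and 173 (86.5%) with 13 for PyMT-Cxcr2-/- TANs against BM (17732 genes).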

Additional observations from a re-analysis of the deposited data

Results flagged for a closer look

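Among 133 groups of 4 values examined for a library far from the other 3, 9 held one, where chance gives about 1 in 20. Among the members, Tnfrsf23 was at 102 CPM in replicate 1 of PyMT TANs, against 60.24 to 66.93 CPM in the others, and Tnfrsf1b was at 951.6 CPM in replicate 3 of PyMT-Cxcr2-/- TANs, against 833.6 to 851.6 CPM. In both cases the library lay farther in the direction in which its group differed from BM.

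Among ligands and signaling genes, Tnf was at 230.8 CPM in replicate 3 of PyMT TANs (others 123.4 to 140.2 CPM), Lta at 1.068 CPM in replicate 2 of PyMT TANs (others 0.2043 to 0.312 CPM) and Ripk1 at 106.5 CPM in replicate 1 of PyMT TANs (others 78.37 to 82.2 CPM). Ltbr was at 55.81 CPM in replicate 4 of PyMT-Cxcr2-/- TANs (others 50.03 to 50.76 CPM), and Cars at 28.3 CPM in replicate 1 of PyMT-Cxcr2-/- TANs (others 24.57 to 24.99 CPM). In BM, Adam17 was at 151.8 CPM in replicate 4 (others 169.3 to 172.7 CPM) and Gm16754 at 1.878 CPM in replicate 4 (others 0.9595 to 1.11 CPM).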

How the results depend on the processing

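Between the TANs, 1 superfamily gene, 1 signaling gene and 1 neighbor were past the thresholds. Superfamily genes numbered 2 with DESeq2 and with all 12 libraries in 1 fit (Tnf and Tnfrsf8), 0 with GC content and length removed, and 0 to 1 with a mouse left out. Signaling genes numbered 2 with DESeq2 and with all 12 libraries (Casp8 and Ripk3), and 0 with DESeq2 size factors, with no filter, with GC content and length removed and with any mouse left out. Neighbors numbered 0 to 1 with a mouse left out. With the replicate block all 3 counts were 0, as were the first 2 with GC content and length removed as well. Deviations of same-numbered mice correlated at -0.205 to -0.07 between the TANs (mean -0.129, against 0.043 for other numbers), -0.103 to 0.045 for PyMT TANs and BM and -0.006 to 0.084 for PyMT-Cxcr2-/- TANs and BM. With 4 pairs per comparison, these values cannot decide whether a number marks shared handling. The cause of the shifts in the counts above was not tested. Counts against BM stayed within 1.5 times of those reported in every alternative run, and no called fold change changed sign. Over all genes, 255 were higher and 110 lower between the TANs. The numbers were 684 and 300 with DESeq2, 579 and 307 with all 12 libraries, 471 and 123 with no filter, 56 and 42 with GC content and length removed (57.1% higher against 69.9%), 4 and 9 with the block, 13 and 21 with both, 427 and 86, 10 and 13, 148 and 100 or 123 and 66 without replicate 1, 2, 3 or 4 of PyMT TANs, and 166 and 47, 181 and 46, 58 and 25 or 68 and 28 without replicate 1, 2, 3 or 4 of PyMT-Cxcr2-/- TANs. Depth limits Tnfsf9, Fasl, Tnfrsf9, Tnfsf8, Tnfrsf11a and Osbpl5 in BM, where a few counts set each fold change.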
